A study of Mus musculus with 7 samples.

Results

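The acyl-CoA synthetase genes Acsl1, Acsl3, Acsl4, Acsl5, Acsl6, Acsf2, Acsf3, Acss1 and Acsm5 were examined in RNA from whole hearts of newborn mice. They were taken by gene symbol from the deposited table, which held 7 of the 9 among its 13788 genes; Acsl6 and Acsm5 had no row and are not analysed here. Hearts whose cardiomyocytes lack Rxra and Rxrb, which encode retinoid X receptors (edKO, 4 libraries, replicates 5, 6, 15 and 33) were compared with wild-type hearts (WT, 3 libraries, replicates 1, 2 and 28). All mice were of the C57BL/6 strain and were taken at postnatal day 0. The sources used here name neither the driver of the deletion nor the deleted exons, and they leave sex and litter unstated. The hearts also hold other cells, and with the driver unnamed it is not known here whether those keep both receptor genes. Levels are normalised reads per 1000000 as deposited, and errors are SDs over n = 4 edKO and n = 3 WT libraries. By its title the study is about gamma-linolenic acid supplied by milk, and for these genes the question is whether the enzymes that activate fatty acids change when the receptors are missing at birth.

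Before beta-oxidation or the synthesis of triglycerides and phospholipids, an acyl-CoA synthetase joins fatty acids to coenzyme A. The enzyme uses ATP to form an acyl-adenylate and then transfers the acyl group to the thiol of coenzyme A. Long-chain members (the Acsl genes) feed beta-oxidation, triglyceride and phospholipid synthesis, and Acsl1 is known as the main form of heart and other oxidative tissues. Acsf2 acts on medium-chain acids, Acsf3 is the malonyl-CoA synthetase of mitochondria, and Acss1 activates acetate inside mitochondria. Retinoid X receptors bind DNA as partners of the PPAR receptors, for which Acsl1 is a textbook target gene.

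The members carry a shared AMP-binding signature, and reads of 61 nt can still tell them apart. The first 61 bases from that signature in the longest protein-coding transcript (GENCODE M21, GRCm38) are shown for the 4 measured Acsl genes, written 5′ to 3′ with the bases unlike Acsl1 in capitals.
Acsl1: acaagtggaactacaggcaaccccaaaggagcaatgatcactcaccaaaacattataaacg
Acsl3: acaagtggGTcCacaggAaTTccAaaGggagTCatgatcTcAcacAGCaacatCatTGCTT
Acsl4: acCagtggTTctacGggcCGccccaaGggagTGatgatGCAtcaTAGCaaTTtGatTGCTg
Acsl5: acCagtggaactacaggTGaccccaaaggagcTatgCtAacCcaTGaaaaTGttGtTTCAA
Acsl5 differed from Acsl1 at 17 of these 61 bases, Acsl3 at 21 and Acsl4 at 23. Over whole transcripts, 0 windows of 61 nt were shared between any 2 measured members. Windows shared with other genes made up 8.96% for Acsl1 (all with Gm45244, which overlaps it on the opposite strand, and whose reads cannot be told apart from those of Acsl1 unless strand was used), 3.98% for Acsl5, 3.33% for Acsl3 and 0.317% for Acss1. They made up 29.7% for Acsf2 (all with the pseudogene Gm5540), so that part of the Acsf2 reads is uncertain in origin, and 0% for Acsl4 and Acsf3.

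RefSeq promoter windows on GRCm38.p6, from 250 bases before to 50 after a transcript start, were available for all 7 measured members, 8 windows in all because Acsl1 has a pair of starts. The windows of the members that were lower in edKO hearts are shown, with GC boxes (GGGCGG on either strand, overlapping ones counted) in capitals.
Acsl1, upstream start, chr8:46470787-46471086, plus strand: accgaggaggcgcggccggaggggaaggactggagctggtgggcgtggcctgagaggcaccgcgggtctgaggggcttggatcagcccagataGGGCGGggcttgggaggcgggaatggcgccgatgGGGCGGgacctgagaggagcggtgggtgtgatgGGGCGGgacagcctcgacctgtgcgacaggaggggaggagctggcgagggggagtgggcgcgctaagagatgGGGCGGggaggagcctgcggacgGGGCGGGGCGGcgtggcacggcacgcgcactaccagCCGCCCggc
Acsl1, downstream start, chr8:46490716-46491015, plus strand: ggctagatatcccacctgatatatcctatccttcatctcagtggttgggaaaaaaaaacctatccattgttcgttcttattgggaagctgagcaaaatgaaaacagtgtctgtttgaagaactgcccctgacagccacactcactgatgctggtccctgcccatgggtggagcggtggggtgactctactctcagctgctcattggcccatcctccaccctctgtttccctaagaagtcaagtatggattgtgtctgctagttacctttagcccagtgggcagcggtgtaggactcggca
Acsf2, chr11:94601737-94602036, minus strand: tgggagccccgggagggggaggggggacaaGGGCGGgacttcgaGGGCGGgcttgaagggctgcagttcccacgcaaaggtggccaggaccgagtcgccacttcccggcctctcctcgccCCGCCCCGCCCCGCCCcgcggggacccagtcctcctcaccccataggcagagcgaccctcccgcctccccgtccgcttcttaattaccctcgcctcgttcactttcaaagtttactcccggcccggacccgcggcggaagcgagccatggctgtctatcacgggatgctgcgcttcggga
The upstream Acsl1 window had a GC content of 74% with 30 CpG dinucleotides and 7 GC boxes, and the Acsf2 window 69.3% with 29 CpG and 5 GC boxes. The downstream Acsl1 window had 50% GC, 4 CpG and 0 GC boxes. The windows of the uncalled Acsl3 and Acsl4 were also rich in GC (74% and 71.7%), with 5 and 2 GC boxes. The deposited values are sums over each gene, so the starts of Acsl1 cannot be told apart. None of the 8 windows held the receptor half-site AGGTCA, found in 16.3% of all 32851 RefSeq promoter windows, or 2 such half-sites in direct repeat with 1 base between, which contain it and are found in 0.0396%, when both strands were searched. GC boxes were in 5 of the 8 windows and in 35.7% of all. A motif match or its lack describes the letters of these windows and nothing about a factor.

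The recovered reads ranged from 12108464 to 24912403 per library. A floor of 3 reads corresponded to 0.122 to 0.262 normalised reads per 1000000, given for scale only, and no gene or value was left out by it. The floors cover counting error only, because the cDNA was amplified and the labels name no molecular identifiers. The labels call the samples biological replicates. Rxra, a total over the whole gene, stood at 66.1 ± 6.74 in edKO and 61.6 ± 1.99 in WT hearts, and Rxrb at 38.9 ± 4.00 and 48.2 ± 3.18. Neither passed the test (limma adjusted p = 0.632 and 0.139). The groups overlapped for Rxra, while Rxrb lay at 34.2 to 44.0 in edKO and 45.5 to 51.7 in WT libraries. Of all genes, 9.04% were likewise lower in edKO without overlap. With the deleted exons not given, these totals do not check the genotype labels. All 10 cardiomyocyte markers were measured and none was called, and their summed level was 47771 to 50314 in edKO and 46780 to 51541 in WT hearts. The deepest library, edKO replicate 33, stood apart in its group: its 8 fibroblast markers summed to 6965, against 3408 to 5032 in the other edKO and 5558 to 7052 in the WT libraries. The part of this in the results was not tested, and values without that library are given beside the members that were called.

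Among all genes limma called 580 (4.21%) at an adjusted p under 0.05, with 293 lower (2.13%) and 287 higher (2.08%) in edKO hearts; without edKO replicate 33 it called 1177. Of the 7 members, 2 were lower, Acsl1 and Acsf2, none was higher and 5 did not pass. The edKO and WT libraries did not overlap for these same 2 members, both lower, against 17.4% of all genes without overlap, 9.04% lower and 8.41% higher.

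**Figure D1:**
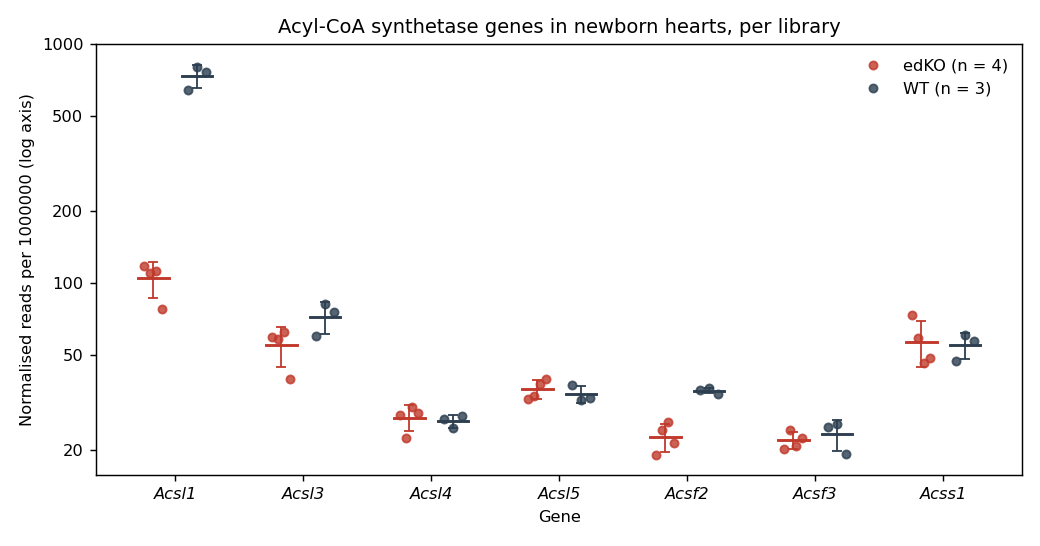
Normalised reads per 1000000 (log axis) of the 7 measured acyl-CoA synthetase genes, with 1 point per library, the mean as a bar and the SD as whiskers, edKO (n = 4) left of WT (n = 3). Acsl1 lies at 78.0 to 118 in edKO and 642 to 803 in WT libraries, Acsf2 is lower without overlap, and the groups of the other 5 genes overlap.

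Acsl1 (ENSMUSG00000018796; chromosome 8, 46471037 to 46536051, plus strand, GRCm38) activates long-chain fatty acids at the outer mitochondrial membrane and endoplasmic reticulum. It stood at 118, 110, 113 and 78.0 in edKO replicates 5, 6, 15 and 33, against 642, 803 and 760 in WT replicates 1, 2 and 28. Every edKO library lay far below every WT library, and edKO replicate 33 was the lowest of all. These levels rest on 1353 to 1915 recovered reads in edKO and 8328 to 11673 in WT libraries. The edKO mean was 104.7 ± 18.1 and the WT mean 735 ± 83.4, so that the edKO hearts held 14.2% of the WT level, a 7.02-fold fall. On the log2(value + 1) scale the difference was -2.81 (SE 0.14, 95% interval -3.12 to -2.50, limma adjusted p = 1.22e-06). It was the 8th most negative difference of the 13788 genes. Acsl1 was called in each fit that left out 1 library (log2 difference -2.91 to -2.68, limma adjusted p 8.87e-08 to 5.74e-05), with -2.68 without edKO replicate 33. In whole hearts, fewer cells of a type and less RNA per cell cannot be told apart.

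Acsl3 (chromosome 1, 78657825 to 78707743, plus strand) makes acyl-CoA at the endoplasmic reticulum and on growing lipid droplets. It stood at 59.4, 58.1, 62.2 and 39.5 in edKO replicates 5, 6, 15 and 33, against 59.9, 81.5 and 75.5 in WT replicates 1, 2 and 28. WT replicate 1 lay among the edKO libraries, and edKO replicate 33 was again the lowest. The log2 difference was -0.40 (95% interval -0.75 to -0.05), with an unadjusted p of 0.0285 and a limma adjusted p of 0.198, so it was not called. The adjusted p was 0.177 to 0.475 in the fits that left out 1 library.

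Acsl4 and Acsl5 did not pass the test. Acsl4 (chromosome X, 142317993 to 142390535, minus strand), which prefers arachidonic and other polyunsaturated acids, stood at 27.96, 22.4, 30.3 and 28.4 in edKO replicates 5, 6, 15 and 33, against 26.9, 24.6 and 27.7 in WT replicates 1, 2 and 28. The WT values lay within the edKO range, and the log2 difference was 0.04 (95% interval -0.23 to 0.31, limma adjusted p = 0.888). The sex of the mice is not labelled, and Xist, the non-coding RNA of the inactive X, stood at 441, 179, 0.0898 and 1.93 in edKO replicates 5, 6, 15 and 33, against 167, 0.0344 and 0.327 in WT replicates 1, 2 and 28. With Xist as a covariate the Acsl4 difference was 0.07. Acsl5 (chromosome 19, 55251938 to 55297720, plus strand), found on mitochondria and endoplasmic reticulum, stood at 32.7, 33.5, 37.6 and 39.4 in edKO replicates 5, 6, 15 and 33, against 37.4, 32.4 and 32.98 in WT replicates 1, 2 and 28. The groups overlapped, with a log2 difference of 0.06 (95% interval -0.17 to 0.29, limma adjusted p = 0.792). The intervals leave room for a rise of up to 1.24-fold or a fall of up to 1.17-fold in Acsl4, and for 1.23-fold or 1.13-fold in Acsl5.

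Acsf2, a mitochondrial synthetase for medium-chain acids, was lower in edKO hearts. The gene (chromosome 11, 94557102 to 94601871, minus strand) stood at 19.0, 24.1, 26.1 and 21.3 in edKO replicates 5, 6, 15 and 33, against 35.6, 36.2 and 34.4 in WT replicates 1, 2 and 28. No edKO library reached the WT range, and the WT libraries lay close together. The edKO mean was 63.9% of the WT mean (22.6 ± 3.13 against 35.4 ± 0.936), a log2 difference of -0.63 (SE 0.12, 95% interval -0.90 to -0.37, limma adjusted p = 0.0145). The call was lost without any single WT library (adjusted p 0.0682, 0.0797 and 0.0607 without WT replicates 1, 2 and 28), at log2 differences of -0.65 to -0.62. Without edKO replicate 33 the difference was -0.61 (limma adjusted p = 0.0147).

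The other mitochondrial members did not pass. Acsf3 (chromosome 8, 122775486 to 122817880, plus strand) stood at 20.2, 24.2, 20.7 and 22.5 in edKO replicates 5, 6, 15 and 33, against 24.9, 25.7 and 19.2 in WT replicates 1, 2 and 28. The groups overlapped, with a log2 difference of -0.08 (95% interval -0.36 to 0.21, limma adjusted p = 0.784). Acss1 (chromosome 2, 150618105 to 150668500, minus strand) stood at 73.2, 58.9, 46.2 and 48.5 in edKO replicates 5, 6, 15 and 33, against 47.0, 60.6 and 57.1 in WT replicates 1, 2 and 28. The edKO libraries spread on both sides of the WT range, with a log2 difference of 0.03 (95% interval -0.31 to 0.37, limma adjusted p = 0.939). Acss1 had the widest relative spread of the 7 members in edKO hearts, with a coefficient of variation of 21.7%, against 12.8% in WT hearts.

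**Figure D2:**
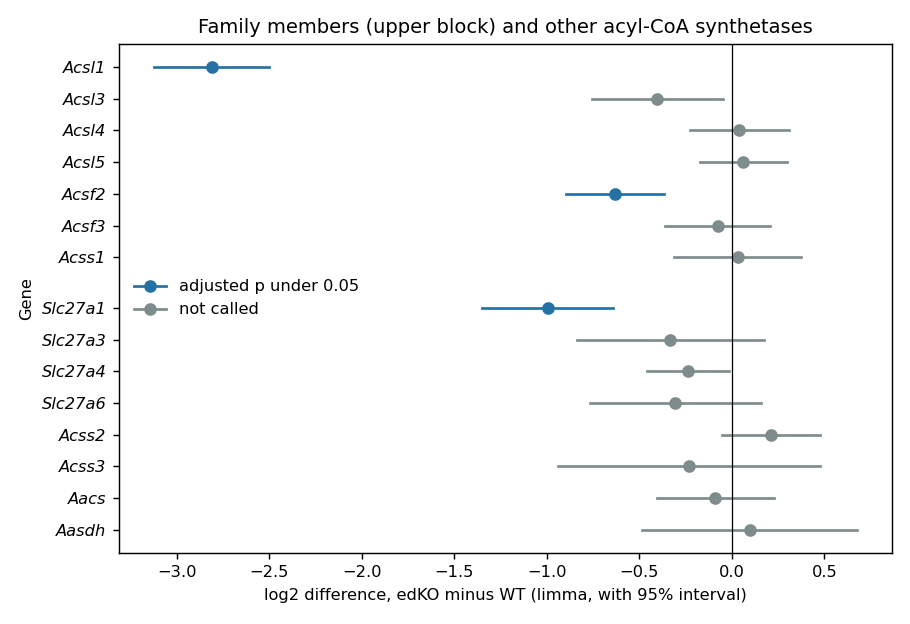
The log2 difference, edKO minus WT (limma, on log2(value + 1)), with its 95% interval for the 7 members (upper block) and 8 other acyl-CoA synthetase genes (lower block). Acsl1 at -2.81, Acsf2 at -0.63 and Slc27a1 at -0.997 are the genes called at an adjusted p under 0.05.

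To compare the members with each other, each value was divided by the length of the gene's merged exons in kilobases. Acsl1 then averaged 9.98 ± 1.72 in edKO and 70.1 ± 7.95 in WT hearts, Acsl3 12.6 ± 2.38 and 16.6 ± 2.55, and Acss1 13.7 ± 2.99 and 13.3 ± 1.70 normalised reads per kilobase per 1000000. In edKO hearts the order was Acss1, Acsl3, Acsl1, Acsl5, Acsf2, Acsf3 and Acsl4, and each gene overlapped its neighbours in that order. In WT hearts Acsl1 stood first, far from the next member, followed by Acsl3, Acss1, Acsf2, Acsl5, Acsf3 and Acsl4. There Acsl3 overlapped Acss1, Acsl5 overlapped Acsf3, and the other neighbours did not overlap. Compared within each library, Acsl3 lay above Acsl1 and Acsf2 above Acsf3 in every edKO library. Acsl3 lay above Acss1 in every WT library, and the other overlapping neighbours changed order between libraries. The place of Acsl1 in edKO hearts depends on the length used: its merged exons span 10.5 kb with, and 4.35 kb without, the 3 transcripts annotated as retained introns in GENCODE M21, and its longest protein-coding transcript has 3.90 kb. Per kilobase of that transcript Acsl1 averaged 26.9 ± 4.64 in edKO and 189 ± 21.4 in WT hearts and stood first in both, ahead of Acss1 at 15.7 ± 3.41 in edKO hearts and Acsl3 at 18.3 ± 2.82 in WT hearts.

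The make-up of the family differed between the groups. The share of Acsl1 in the summed level per kilobase of exon was 17.2%, 16.8%, 17.1% and 13.8% in edKO replicates 5, 6, 15 and 33, against 52.8%, 55.3% and 55.5% in WT replicates 1, 2 and 28. The share was thus below 20% in all edKO libraries and above 50% in all WT libraries. The difference was -38.3 percentage points (mean 16.2% ± 1.61 in edKO and 54.5% ± 1.51 in WT hearts; exact permutation test, 2-sided, p = 0.0286, the smallest that 35 assignments allow). The share is formed from the same Acsl1 values as the limma call above, so this test is not separate evidence. With the longest protein-coding transcript as length, the share was 31.2% ± 2.65 in edKO and 73.8% ± 1.25 in WT hearts.

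Since shares of a library add to 100%, the other members took larger shares in edKO hearts, and these are given as values. Acss1 took 22.4% ± 3.80 in edKO and 10.3% ± 0.439 in WT hearts, Acsl3 20.4% ± 2.54 and 12.9% ± 0.887, and Acsl5 12.2% ± 2.11 and 5.54% ± 0.963. Acsf2, which fell itself, took 10.8% ± 1.63 in edKO and 8.07% ± 0.747 in WT hearts. With the longest protein-coding transcript as length, where Acsl1 takes more, these shares were smaller. Acss1 then took 18.3% ± 3.04 in edKO and 5.93% ± 0.189 in WT hearts, Acsl3 16.1% ± 1.79 and 7.14% ± 0.418, Acsl5 9.996% ± 1.90 and 3.20% ± 0.594, and Acsf2 8.43% ± 1.31 and 4.42% ± 0.460. The summed level per kilobase of exon of the 7 members was 53.8 to 65.5 in edKO and 116 to 139 in WT libraries. Acsl1 made up 89.3% of the difference between the means of these sums, and 95.3% with the longest protein-coding transcript as length. Without Acsl1 the sum of the other 6 was 46.4 to 54.2 in edKO and 54.8 to 62.0 in WT libraries. Those ranges met closely but did not overlap. Between the means, edKO minus WT, Acsl3 differed by -4.01, Acsf2 by -3.72 and Acsf3 by -0.37. Acsl4, Acsl5 and Acss1 differed by 0.17, 0.32 and 0.44, and the sum of the 6 by -7.17. Per kilobase of the longest protein-coding transcript this sum was 53.4 to 62.1 in edKO and 62.9 to 71.0 in WT libraries, again without overlap. With no correction for length it was 199.5 to 232.5 in edKO and 231.7 to 260.9 in WT libraries, which overlap. The ratio of Acsl1 to the summed Acsl3, Acsl4 and Acsl5 per kilobase of exon, on the log2 scale, was -1.18, -1.22, -1.36 and -1.59 in edKO replicates 5, 6, 15 and 33, against 1.21, 1.36 and 1.31 in WT replicates 1, 2 and 28. The level of this ratio depends on the length used: per kilobase of the longest protein-coding transcript it was 0.11, 0.07, -0.07 and -0.30 in those edKO libraries, against 2.50, 2.65 and 2.60 in the WT libraries. Every edKO library lay below every WT library with either length, but Acsl1 stood below the sum of the other 3 in all 4 edKO libraries per kilobase of exon and in 2 of the 4 per kilobase of that transcript.

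**Figure D3:**
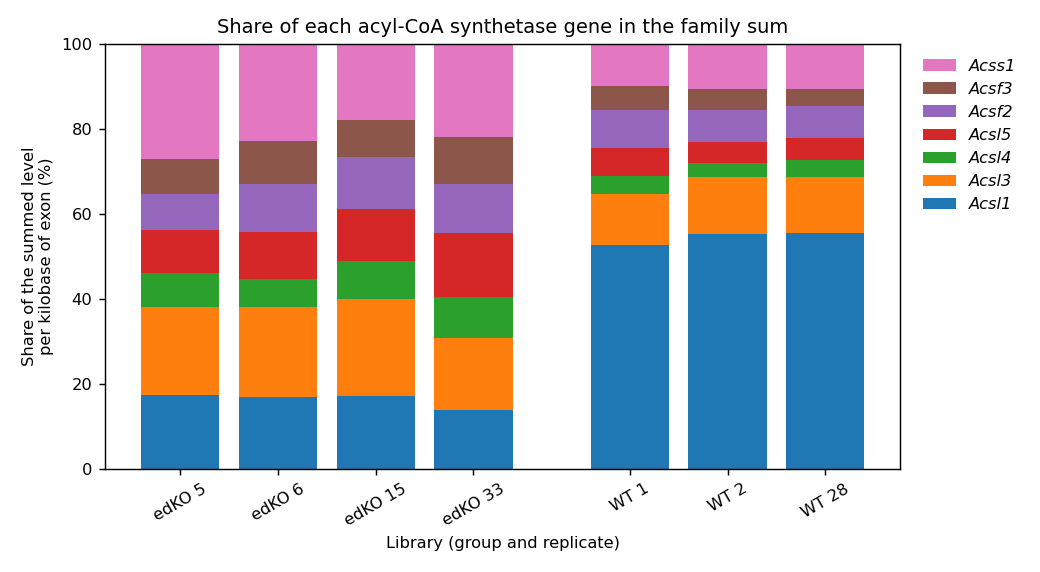
Share of each of the 7 measured members in their summed level per kilobase of exon (%), in stacked bars, 1 per library, with the 4 edKO libraries left of the 3 WT libraries. Acsl1, at the bottom, takes 13.8% to 17.2% in edKO and 52.8% to 55.5% in WT libraries.

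Among 16 other acyl-CoA synthetase genes, 8 were measured, Slc27a1 alone passed, with a median log2 difference of -0.24 (all genes -0.0036). Slc27a1 (FATP1), a fatty acid transport protein that also has acyl-CoA synthetase activity, was lower. It stood at 48.0, 37.2, 41.3 and 28.9 in edKO replicates 5, 6, 15 and 33, against 65.9, 89.6 and 78.2 in WT replicates 1, 2 and 28. The groups did not overlap, and edKO replicate 33 was the lowest, as it was for Acsl1 and Acsl3. The log2 difference was -0.997 (SE 0.16, limma adjusted p = 0.00579), and it was called in each fit that left out 1 library (adjusted p 0.00245 to 0.0432). The paralog Slc27a4 had 36.0 ± 2.90 in edKO and 42.6 ± 3.07 in WT hearts and was not called (limma adjusted p = 0.231), and Acss2, the cytosolic acetyl-CoA synthetase, had 33.3 ± 4.68 and 28.4 ± 0.802 (limma adjusted p = 0.379).

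Lists of enzymes and proteins that share substrates or products with the synthetases differed in how many of their genes were called. In carnitine shuttle and malonyl-CoA control, the route of acyl-CoA into mitochondria, limma called 7 of 10 measured genes lower and none higher, with a median log2 difference of -0.92. Crat, carnitine acetyltransferase, stood at 227 ± 17.8 in edKO and 454 ± 19.5 in WT hearts, and Cpt1b, the muscle form of the outer-membrane carnitine palmitoyltransferase, at 315 ± 50.8 and 610 ± 77.2 (limma adjusted p 0.000122 and 0.00299). Of the 61-nt windows of Cpt1b, 77.9% also occur in Gm44502, so the origin of its reads is uncertain. Slc25a20, the carnitine-acylcarnitine carrier, stood at 54.4 ± 5.53 in edKO and 185 ± 11.5 in WT hearts (limma adjusted p = 2.75e-06). Acacb, which makes the malonyl-CoA that restrains Cpt1, had a log2 difference of -0.70 (limma adjusted p = 0.0286) and lost its call without edKO replicate 5, WT replicate 2 or WT replicate 28 (adjusted p 0.0622, 0.147 and 0.12).

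Acyl-CoA thioesterases, which undo the synthetase reaction, split. Of 9 measured genes, 3 were lower, 1 was higher and 5 did not pass, with a median of 0.00. Acot2 stood at 34.0 ± 6.76 in edKO and 247 ± 9.13 in WT hearts, Acot1 at 13.1 ± 3.69 and 139 ± 14.6, and Acot7 at 47.9 ± 3.50 and 73.6 ± 1.28 (limma adjusted p 1.22e-06, 1.22e-06 and 0.00311). Acot1 and Acot2 share windows, 24.7% of those of Acot2 occurring in other genes. Acot11 was higher, at 32.2 ± 10.5 in edKO and 16.04 ± 1.55 in WT hearts (limma adjusted p = 0.0277). Of its windows 16.5% occur in Fam151a, and its call was lost without edKO replicate 15 or any WT library (adjusted p 0.0535, 0.0771, 0.13 and 0.112 without edKO replicate 15 and WT replicates 1, 2 and 28).

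For uptake and binding of fatty acids, 2 of 12 measured genes were lower, 1 was higher and 9 did not pass, with a median of 0.08. Fabp3, which carries fatty acids through the cytosol of heart muscle, stood at 1202 ± 61.2 in edKO and 2988 ± 367 in WT hearts (limma adjusted p = 0.00014), with 32.1% of its windows occurring in other genes. Dbi, the acyl-CoA binding protein that carries the product of the synthetases, stood at 77.0, 70.9, 69.3 and 92.8 in edKO replicates 5, 6, 15 and 33, against 220, 151 and 160 in WT replicates 1, 2 and 28, without overlap (log2 difference -1.17, limma adjusted p = 0.000968). Lpl, the lipoprotein lipase that frees fatty acids from circulating lipoproteins, was higher (1415 ± 291 in edKO and 855 ± 47.8 in WT hearts, limma adjusted p = 0.0288), a call that was lost without edKO replicate 5 or 15 or any WT library (adjusted p 0.0672 to 0.115). Without edKO replicate 33 the list held 5 calls, 2 lower and 3 higher.

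Of glycerolipid synthesis from acyl-CoA, limma called 2 of 11 measured genes lower and none higher, with a median of 0.01. They were Dgat2, a gene for the last step of triglyceride synthesis, and the acyltransferase gene Agpat3. Dgat2 stood at 30.8 ± 5.76 in edKO and 90.1 ± 3.58 in WT hearts, and Agpat3 at 134 ± 6.10 and 214 ± 15.3 (limma adjusted p 0.000153 and 0.0013). Dgat1, for the same step as Dgat2, was not called, at 23.8 ± 2.87 in edKO and 23.2 ± 2.20 in WT hearts (limma adjusted p = 0.913). In polyunsaturated fatty acid synthesis and membrane incorporation, the substrates and use of Acsl4, limma called 2 of 13 lower and none higher, with a median of -0.18. Lpcat3, which places polyunsaturated acyl groups into phospholipids, stood at 29.4 ± 2.23 in edKO and 58.4 ± 3.86 in WT hearts (limma adjusted p = 0.00031). Fads1, the delta-5 desaturase, stood at 32.97 ± 6.52 and 49.1 ± 3.38 (limma adjusted p = 0.0436) and lost its call without any single library other than edKO replicate 33 (adjusted p 0.058 to 0.166), and with edgeR (0.0544), which left 1 call in that list.

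Mitochondrial fatty acid synthesis and lipoylation, which uses the malonyl-CoA that Acsf3 makes, held no limma call among 8 measured genes, with a median of -0.04. At an unadjusted p under 0.05 it held 1, and with edgeR, DESeq2 and limma voom it held 0. Its most abundant genes were Ndufab1, the acyl carrier protein, at 164 ± 5.91 in edKO and 183 ± 33.5 in WT hearts, and Lias, the lipoic acid synthase, at 54.3 ± 2.62 and 46.2 ± 1.94 (limma adjusted p 0.537 and 0.177). Of 18 measured genes of RXR and partner receptors, 1 was lower and 1 higher, with a median of 0.14. Rxrg stood at 0.878 ± 0.441 in edKO and 2.86 ± 0.522 in WT hearts, and the coactivator gene Ppargc1a at 130 ± 18.8 and 88.2 ± 11.8 (limma adjusted p 0.0291 and 0.0421). The Rxrg values rest on few reads, at 0.389 to 1.45 in edKO libraries. Its log2 difference was -1.06, and -1.77 to -0.42 under the other settings that kept all libraries. Ppargc1a lost its call without any single library other than edKO replicate 33 (adjusted p 0.0661 to 0.166), and Rxrg without edKO replicate 5 or 15 or any WT library (0.0685 to 0.147). Without edKO replicate 33 this list held 6 calls, 2 lower and 4 higher, and with edgeR 0. Ppara, the receptor partner best known for fatty acid oxidation, was not called, at 7.96 ± 2.12 in edKO and 4.57 ± 1.38 in WT hearts (limma adjusted p = 0.137).

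**Figure D4:**
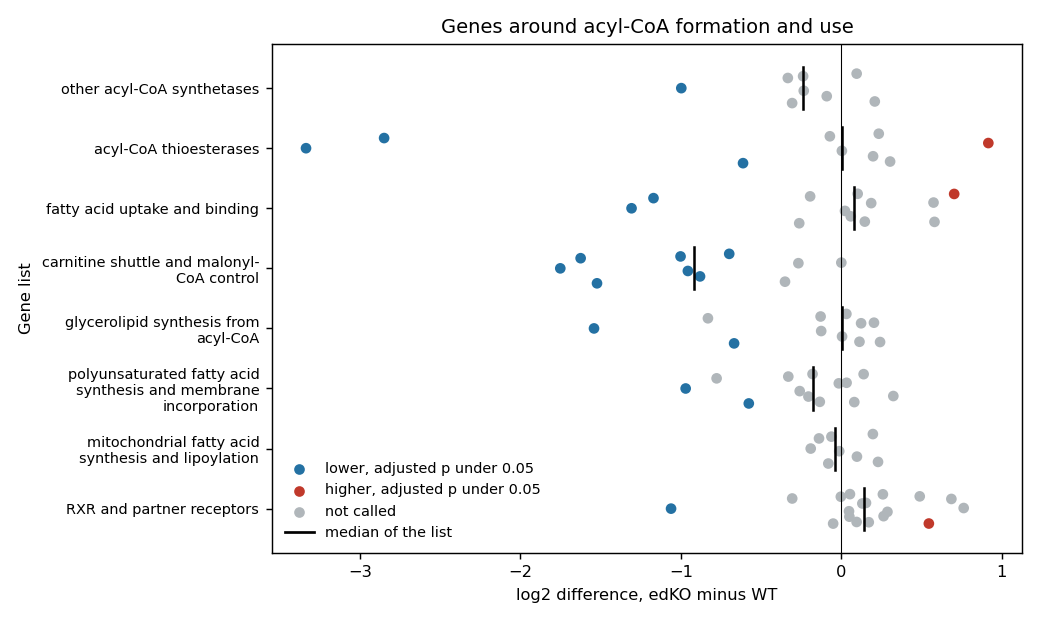
The log2 difference, edKO minus WT, of each measured gene in 8 lists around acyl-CoA formation and use, with the median of a list as a vertical bar (vertical scatter within a list has no meaning). The carnitine shuttle list has its median at -0.92 and 7 of 10 genes called lower, while the medians of the other lists lie between -0.24 and 0.14.

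The genes whose pattern over the 7 libraries was most like that of Acsl1, among 6690 named genes at or above the median level, were Acadvl, Acot2, Etfdh, Cpt2 and Decr1. Pearson's r of log2(value + 1) with Acsl1 was 0.9990, 0.9984, 0.9981, 0.9968 and 0.9960 in that order. The libraries share the group difference and the deposited scaling, so these coefficients mostly restate that each gene is lower in edKO hearts. Acadvl encodes the very long-chain acyl-CoA dehydrogenase and Etfdh the electron transfer flavoprotein dehydrogenase. Cpt2 encodes the inner-membrane carnitine palmitoyltransferase and Decr1 the dienoyl-CoA reductase needed for polyunsaturated acids. Of the windows of Acadvl, 23.6% also occur in Dvl2. Acadvl stood at 190 to 242 in edKO and 692 to 782 in WT libraries, and Decr1 at 79.0 to 94.8 in edKO and 236 to 255 in WT libraries. In edKO libraries Acsl1 lay at 10.6% to 16.1% of its WT mean and Acot2 at 9.78% to 15.7%, both lowest in edKO replicate 33. Of the other members, Acsf2 had an r of 0.92 with Acsl1 and ranked 136th, Acsl3 had 0.75, and Acsf3, Acss1, Acsl4 and Acsl5 lay between -0.39 and 0.23.

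**Figure D5:**
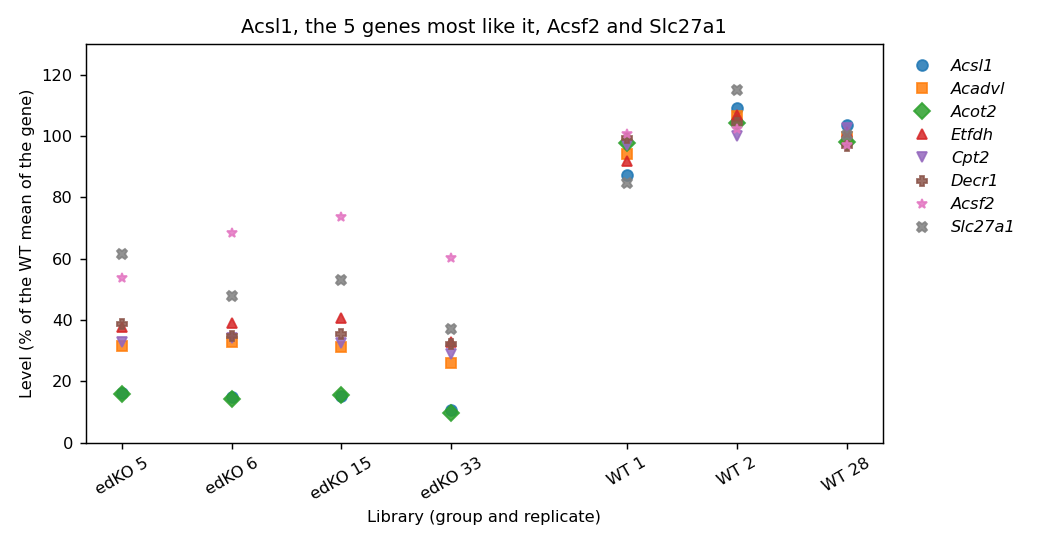
Level of Acsl1, the 5 genes most like it, Acsf2 and Slc27a1 in each library, as a percentage of the WT mean of the gene, with the 4 edKO libraries left of the 3 WT libraries. In edKO libraries Acsl1 and Acot2 lie together at 9.78% to 16.1%, the other 4 like genes higher, and Acsf2 at 53.6% to 73.7%.

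Markers of other cells were set beside these results. Endothelial markers, 8 of 8 measured, summed to 1158 to 1358 in edKO and 1040 to 1325 in WT libraries. Fibroblast markers, 8 of 8 measured, summed to 3408 to 6965 in edKO and 5558 to 7052 in WT libraries. Erythroid markers, 6 of 7 measured, summed to 23331 to 43309 in edKO and 17403 to 30584 in WT libraries. No endothelial, fibroblast, smooth muscle, epicardial, immune, hepatocyte or Schwann cell marker was called, and none of the 6 adipocyte markers, among them Adipoq and Plin1, had a row. The part of erythroid or fibroblast RNA in the member differences was not tested.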

How the data were processed

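RNA-seq libraries of whole newborn hearts were analysed, 4 edKO and 3 WT. Per the labels' protocols, RNA was prepared from biological replicates and amplified cDNA was sequenced as single reads of 61 nt. RSEM 1.3.1, cutadapt and limma, with the build GRCm38, are listed in the submitters' processing notes, without annotation release or gene filter. The signal values deposited by the authors are, per 1000000, reads plus 0.5 over the effective size of the library. By this formula 100% of the 96516 values gave whole reads within a tolerance of 1e-06. Recovered totals were 12108464 to 24912403 reads. Such scaling hides a shift common to most genes.

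The main test was limma 3.58.1 (R 4.3.3) on log2(value + 1) values, 2-sided, with its trend option, without covariates, and with Benjamini-Hochberg adjustment over all 13788 genes at a threshold of 0.05. A fold change on this scale understates the change of low genes. Shares used values per kilobase of merged exons (GENCODE M21, GRCm38; 99.5% of identifiers matched). The limma and edgeR fits were also run on simulated reads with known changes, and the outcome is not given here. edgeR 4.0.16, DESeq2 1.42.0 and limma voom were run on the recovered reads as alternatives. Other alternatives were a filter at a mean value of 1, pseudocounts of 0.1 and 5, robust variances, no trend, quantile normalisation, library weights, Xist as a covariate, median centring, other lengths and denominators for shares, and leaving out each library; the longest protein-coding transcript as length was added after seeing the data. Other software was numpy 2.4.6, pandas 2.3.3 and matplotlib 3.10.9 under Python 3.11.15.

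The members and gene lists were chosen with earlier results of these data known. Named genes are all measured members, the 5 genes most correlated with Acsl1, and the deleted Rxra and Rxrb. They also include up to 4 called genes of highest level per list, or its 2 most abundant where none was called. Slc27a4, Acss2, Dgat1 and Ppara were named after their values were seen. The result for 1 marker gene is not reported here.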

Additional observations from a re-analysis of the deposited data

Results flagged for a closer look

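Among 40 quantities in the 4 edKO libraries (33 named genes and the shares of 7 members), 3 had a library far from the other 3 by Dixon's ratio at its 95% critical value; chance flags about 1 in 20 such groups. The Acsl1 share was 13.8% in edKO replicate 33, against 16.8% to 17.2% in the other edKO libraries. Dgat2 stood at 22.1 in edKO replicate 33, against 33.1 to 34.2 in the others. Acot1 stood at 18.6 in edKO replicate 5, against 10.9 to 11.6 in the others.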

How the results depend on the processing

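No paired analysis was possible because the groups share no replicate number. The count of genes called among all 13788 was 580; it was 1284 with library weights, 370 without the trend option, 364 with Xist as a covariate, 1059 with DESeq2, and 222 to 1177 in the fits that left out 1 library, lowest without WT replicate 2 and highest without edKO replicate 33; the cause was not tested. The count of members called was 2 under all 12 other settings and 1 to 2 without single libraries (1 without any WT library, where Acsf2 was lost). The difference of the Acsl1 share was -37.5 to -42.7 percentage points; without single libraries it was -39.1 to -37.5 with p between 0.0667 and 0.1, the smallest p that fewer libraries allow. Of 133 member values under alternatives, 124 kept direction and side of the threshold, 3 (Acsf2) lost the call and 6 reversed, all of members that were not called: Acsl4 at -0.01 without edKO replicate 15 and -0.01 without WT replicate 2 (-0.01226 and -0.00804), and Acss1 at -0.041 with library weights, -0.014 with Xist as a covariate, -0.10 without edKO replicate 5 and -0.07 without WT replicate 1. Over the fits without single libraries, Acsl4 ranged from -0.01 to 0.13, Acss1 from -0.10 to 0.12 and Ndufab1 from -0.22 to 0.00673. Rxrb was called with library weights (adjusted p = 0.0344) and without edKO replicate 33 (0.044). Without the trend option, with Xist as a covariate, with quantile normalisation, or with edgeR or voom, some of Acacb, Acot11, Fads1, Lpl, Ppargc1a and Rxrg also lost their calls (adjusted p 0.0502 to 0.103). Depth limits the members little, each resting on at least 217 reads in every library; 7 libraries limit what the tests can find.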
